A study of Mus musculus with 36 samples.

Results

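The surface proteins of early B cells encoded by Il7r, Crlf2, Enpep, Bst1, Cd38, Cd24a, Spn, Cd2 and Cd72 were followed at the RNA level while C/EBPα turned B cells into macrophages, a conversion called BMT. These are 9 genes. They were chosen by name, and all 9 had rows in both count tables, which hold 40354 genes each, and passed the low-count filter in every fit. The question of the study was how arginine 35 of C/EBPα, a residue that the methyltransferase Carm1 modifies, bears on the speed of the lineage switch. RNA-seq covered 3 forms of the factor: the wild type (WT), R35A with alanine at that position, and R35K with lysine. Each form was sampled at 0, 1, 3, 6, 18 and 120 hours post-induction (hpi), which gave 18 groups of 2 libraries and 36 libraries in all. The study calls the 2 libraries of a group biological replicates.

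All groups were B cells from the bone marrow of C57BL/6J mice. They were infected with a retrovirus carrying the factor fused to the estrogen receptor (ER) and a human CD4 marker, then enriched for hCD4. Addition of 100 nM 17β-estradiol (E2) sends the fusion protein to the nucleus, so the 0 hpi cells already carried the construct and served as its control. Cells grew on inactivated embryonic fibroblasts (MEFs) with IL-7, IL-3, FLT-3, mCSF-1 and mSCF. Per the study's methods, the medium was then renewed at intervals without IL-7. The sample labels give differential adherence as a step to remove the fibroblasts before RNA extraction. No arm received an empty vector, so effects of the factor, E2 and the culture medium cannot be told apart in a change from 0 hpi. The R35K libraries have tables of their own, so table and construct cannot be told apart where R35K is set against the others.

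In mouse bone marrow, developing B cells are staged by their surface antigens. Progenitors carry CD43 (Spn), and the heat-stable antigen (Cd24a) and BP-1 (Enpep) appear as they mature towards the pre-B cell. IL-7 acts through IL-7Rα (Il7r) and the common γ chain to keep these cells alive and dividing, and TSLP acts through IL-7Rα paired with Crlf2. BP-1 is a glutamyl aminopeptidase, while CD157 (Bst1) and CD38 (Cd38) are related enzymes that consume NAD. CD24 and CD43 are heavily glycosylated adhesion molecules, CD2 binds CD48, and CD72 is an inhibitory coreceptor of the B cell receptor.

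Promoter sequences are shown for 4 of the genes, because these differ in how their transcripts behaved. Enpep was shut off, and Crlf2 did not pass the threshold before 120 hpi. Spn and Cd72 fell further in R35A than in WT at 1, 3 and 6 hpi. Each is the 250 bases before the RefSeq start site (GRCm38.p6), written from 5′ to 3′ along the gene's strand, which is minus for these 4. The windows are chr3:129332750-129332999 for Enpep, chr7:127137824-127138073 for Spn, chr4:43454627-43454876 for Cd72 and chr5:109558994-109559243 for Crlf2. Capitals mark a match to AGGAAG, the core bound by ETS factors such as PU.1, to TTGCNNAA, a C/EBP-type site, or to TATAAA, on either strand.
Enpep: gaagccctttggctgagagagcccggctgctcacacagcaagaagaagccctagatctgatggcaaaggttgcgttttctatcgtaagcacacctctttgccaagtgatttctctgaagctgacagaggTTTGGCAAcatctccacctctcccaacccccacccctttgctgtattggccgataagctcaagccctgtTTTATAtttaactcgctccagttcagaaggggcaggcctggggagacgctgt
Spn: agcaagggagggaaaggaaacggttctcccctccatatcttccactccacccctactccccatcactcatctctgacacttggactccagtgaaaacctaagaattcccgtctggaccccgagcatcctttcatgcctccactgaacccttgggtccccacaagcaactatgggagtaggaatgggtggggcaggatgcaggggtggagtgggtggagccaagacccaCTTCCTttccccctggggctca
Cd72: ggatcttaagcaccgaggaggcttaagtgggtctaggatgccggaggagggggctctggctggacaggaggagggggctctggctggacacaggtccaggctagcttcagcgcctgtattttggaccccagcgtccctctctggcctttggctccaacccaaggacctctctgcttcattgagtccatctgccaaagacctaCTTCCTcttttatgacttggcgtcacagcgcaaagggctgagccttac
Crlf2: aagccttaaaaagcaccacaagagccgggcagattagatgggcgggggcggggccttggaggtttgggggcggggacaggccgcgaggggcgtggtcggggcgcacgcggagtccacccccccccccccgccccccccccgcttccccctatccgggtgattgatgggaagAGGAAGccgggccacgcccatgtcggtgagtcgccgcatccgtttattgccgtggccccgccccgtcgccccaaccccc
RefSeq windows were matched for 6 of the 9 genes. AGGAAG occurred in 5 of these 6 windows, in Il7r, Crlf2, Cd38, Spn and Cd72, and in 29.5% of all 32841 windows of this length. It began 48 bases before the start site in both Il7r and Cd72 and 22 bases before it in Spn. TTGCNNAA occurred in Il7r and Enpep and in 9.6% of all windows, and TATAAA in Enpep and in 12.4%. TCCCNNGGGA, a site of the EBF type, and the E-boxes CAGCTG and CAGGTG were in none of the 6 windows, against 0.8%, 13.0% and 17.2% of all windows. No marked matches overlapped each other. The Crlf2 window held 24 CpG dinucleotides, where the other 5 held 1 to 6 and the median window 6. The Cd72 window holds 2 bases of an annotated Cd72 exon. The windows of Il7r and Cd38 hold 86 and 250 annotated exon bases of their own genes and are not printed. Both are among the 5 windows counted with AGGAAG, so that count is not of upstream sequence alone.

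Total counts per library lay between 13044456 and 23131776. Levels are given as CPM, each count divided by the TMM-scaled size of its own library over the 36 libraries, replicate 1 before replicate 2. A change from 0 hpi was called at a fold of at least 1.5 and an unadjusted p of at most 0.05 by edgeR's quasi-likelihood test, the thresholds of the study's methods. All other comparisons were called at the same fold and an adjusted p (Benjamini-Hochberg, over all genes tested) of at most 0.05. Each of the 9 B lineage markers was called lower than at 0 hpi at every later time in every construct, and their sum went from 3744 to 4106 CPM at 0 hpi to 130 to 197 CPM at 120 hpi, and the 8 macrophage markers rose, from 60.9 to 67.6 CPM to 20950 to 32630 CPM. Fibroblast markers of the feeder cells were present throughout: 12 genes summed to 1864 to 2034 CPM at 0 hpi, 2844 to 4750 CPM between 1 and 18 hpi and 216 to 738 CPM at 120 hpi. Granulocyte markers, 6 genes, summed to 28.9 to 37.4 CPM at 0 hpi and 1.31 to 3.21 CPM at 1 hpi. Of the T cell markers 4 or 5 of 6 and of the NK cell markers 2 or 3 of 3 were at 3 counts or fewer in both libraries of a group. Plasma cell markers, 4 genes, summed to 197 to 573 CPM and endothelial markers, 4 genes, to 12.9 to 71.3 CPM. The part of these other cells in the changes below was not tested.

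**Figure D1:**
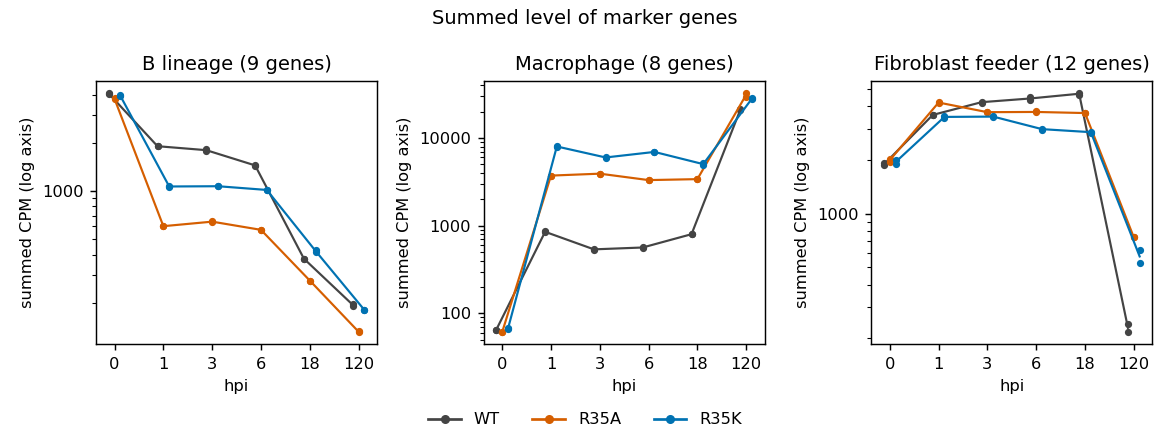
Summed CPM (log axis) of the marker genes of B lineage cells, macrophages and feeder fibroblasts against hpi, with points for the 2 replicates and lines through their means. In each construct the B lineage sum fell and the macrophage sum rose, and the fibroblast sum was higher at 1 to 18 hpi than at 0 hpi and lower at 120 hpi.

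Before induction the constructs stood close together on these genes. At 0 hpi 0 of the 9 genes passed the thresholds between R35A and WT by edgeR or by DESeq2, and edgeR called 0% of all genes. Without adjustment 3 of the 9, Enpep, Cd24a and Spn, had an edgeR p below 0.05, with small differences of -0.08, -0.1 and -0.15 on the log2 scale. The share of all genes at that p without a fold threshold was not computed. At 1.5-fold and unadjusted p, 0 of the 9 passed, against 1.54% of all genes. Levels of different genes can be compared only per length. Per kb of exon, Cd24a stood far above the rest in WT cells at 0 hpi, at 667 ± 3.32 CPM (SD, n = 2). Enpep came next at 55.6 ± 1.70, and Cd72 and Spn followed at 34.0 ± 0.573 and 33.9 ± 0.629, which do not differ beyond their spread. Crlf2 at 19.0 ± 2.16 and Bst1 at 18.3 ± 0.255 overlapped as well, ahead of Il7r at 11.3 ± 0.0566, Cd2 at 4.78 ± 0.0417 and Cd38 at 3.59 ± 0.284. At 120 hpi the order per kb of exon was different, and part of it depended on the length used. Per kb of coding length Bst1 was also first and Enpep last, but Cd24a ranked 2 in place of 6. Bst1 led at 64.5 ± 0.0636 CPM, followed by Crlf2 at 40.8 ± 4.80 and Il7r at 24.6 ± 2.04, and Enpep was last at 0.138 ± 0.0352.

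**Figure D2:**
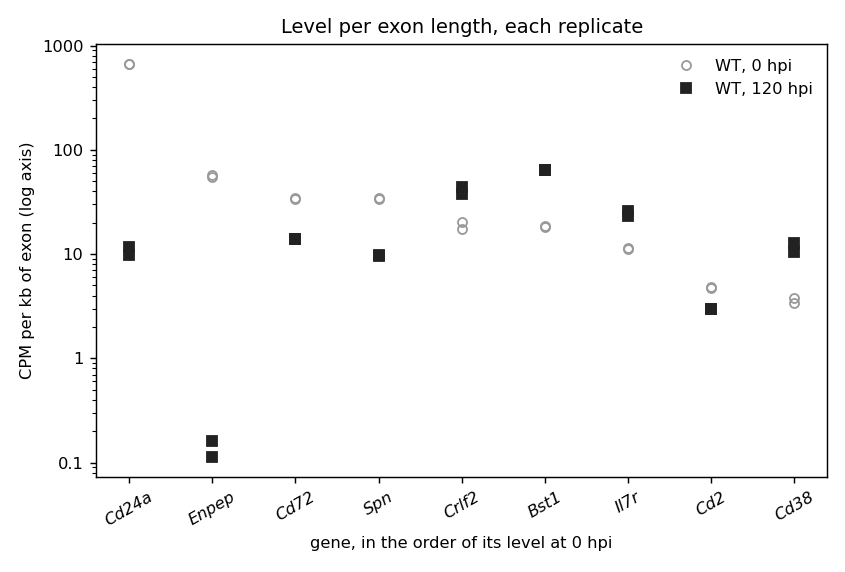
Level of each gene per kb of exon in WT cells (log axis), with 2 replicates at 0 hpi as open circles and 2 at 120 hpi as filled squares. Cd24a was the highest of the 9 at 0 hpi and Bst1 at 120 hpi, where Enpep was the lowest.

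The first hours were dominated by loss. In WT cells the genes that changed numbered 6 of 9 at 1 hpi, 5 by both 3 and 6 hpi, 8 by 18 hpi and 9 by 120 hpi. Over all 16988 genes tested, the same rule called 21.3, 24.8, 31.2, 47.7 and 63.8%. All WT calls up to 18 hpi were falls, and at 120 hpi 4 genes were above and 5 below their starting level. The median log2 change of the 9 genes in WT was -1.10 at 1 hpi and -2.51 at 18 hpi, where the median of all genes was -0.01 and 0.02. In R35A cells 6 of the 9 genes changed at each of 1, 3, 6 and 18 hpi, all downwards, against 38, 37.7, 38.5 and 43.4% of all genes. At 120 hpi 4 were higher and 4 lower, against 63.5%. In R35K cells 1 gene, Il7r, rose and 6 fell at 1, 3, 6 and 18 hpi, against 34, 33.6, 35 and 39.7% of 16434 genes, and 3 were higher and 4 lower at 120 hpi, against 64.2%. In bulk RNA a smaller number of cells expressing a gene and less RNA per cell cannot be told apart.

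**Figure D3:**
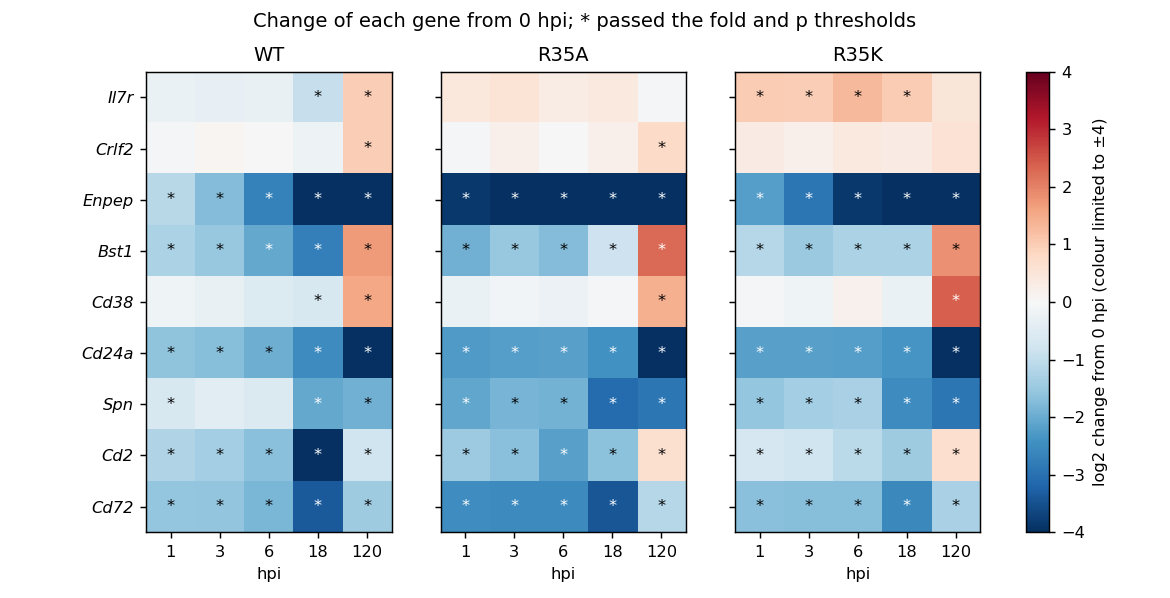
Log2 change from 0 hpi of each gene (rows) at each time (columns) in WT, R35A and R35K cells, with the colour limited to 4 in either direction and asterisks on changes that passed the thresholds. Enpep, Cd24a and Cd72 are blue at every time in every construct, Il7r is red from 1 to 18 hpi in R35K, and Bst1 and Cd38 turn red at 120 hpi in all 3 constructs.

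Among the receptors, Il7r separated the 3 constructs from the first hour. In WT cells its level was 52.9 and 52.6 CPM before induction, 41.9 and 44.1 at 1 hpi, 42.1 and 41.7 by 3 hpi, 44.3 and 42.4 at 6 hpi, 27.1 and 28.5 by 18 hpi and 108 and 121 at 120 hpi. In R35A cells it was 54.5 and 48.1 CPM before induction, 70.5 and 69.9 at 1 hpi, 74.9 and 78.8 by 3 hpi, 64.4 and 63.3 at 6 hpi, 66.8 and 69.7 by 18 hpi and 52.7 and 54.5 at 120 hpi. In R35K cells it was 53.5 and 50.1 CPM before induction, 103 and 112 at 1 hpi, 105 and 104 by 3 hpi, 132 and 135 at 6 hpi, 104 and 110.1 by 18 hpi and 74.3 and 80.6 at 120 hpi. From 1 to 18 hpi the WT libraries were the lowest, R35A lay in between and R35K was the highest, with no overlap between constructs at any of these times. At 120 hpi the order was different, with WT highest and R35A lowest. In WT the fall at 1 to 6 hpi did not reach 1.5-fold, the log2 change at 18 hpi was -0.93 ± 0.066 (SE, edgeR adjusted p = 6.99e-18) and that at 120 hpi was 0.99 ± 0.056 (adjusted p = 6.46e-22). In R35K it rose 2.01-fold by 1 hpi and 2.46-fold by 6 hpi. The R35K value at 120 hpi, 0.48, passed the threshold, at 0.615, with DESeq2. In R35A it stayed below 1.5-fold at all times, with a log2 change of 0.56 at 3 hpi, which passed the threshold, at 0.63, when DESeq2 size factors were used for scaling.

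The difference in change was tested for Il7r as well. Against WT, the R35A change was higher by 0.71 ± 0.083 on the log2 scale at 1 hpi (edgeR adjusted p = 5.28e-10) and by 1.33 ± 0.086 at 18 hpi (adjusted p = 5.17e-18). At 120 hpi the sign was the opposite, -1.04 ± 0.083 (adjusted p = 4.48e-15). The R35K change exceeded that of WT by 1.35 at 1 hpi and 1.97 at 18 hpi. It exceeded that of R35A by 1.04 ± 0.076 at 6 hpi (adjusted p = 2.74e-16), while the difference at 1 hpi, 0.6, fell below the fold threshold with DESeq2, at 0.54. That at 18 hpi, 0.63, fell below it, to 0.54, without the first R35A library at 0 hpi.

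Crlf2, the TSLP receptor chain that pairs with IL-7Rα, had no called change before the last timepoint. Over the 30 libraries from 0 to 18 hpi it lay between 22.9 and 38.3 CPM. At 120 hpi it was 66.1 and 55.9 CPM in WT, 53.5 and 45.4 in R35A and 44 and 41.4 in R35K, all above every earlier library. The log2 change from 0 hpi was 0.98 ± 0.078 in WT (SE, edgeR adjusted p = 3.14e-16), 0.75 ± 0.078 in R35A (adjusted p = 1.99e-12) and 0.58 ± 0.091 in R35K. The R35K value stood just under the fold threshold and passed it, at 0.71, with DESeq2. No difference in change between constructs was called for Crlf2 at any time. The widest of these, R35K minus WT at 18 hpi, was 0.57 ± 0.13 (edgeR adjusted p = 0.000431) and just short of 1.5-fold. The second R35K library at 0 hpi, at 30.7 CPM against 22.9 in the first, decided some of these calls: without it the difference was 0.798, and the R35K change was 0.612 at 6 hpi and 0.799 at 120 hpi, all past the fold threshold.

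Around these receptors, 23 genes of IL-7 and TSLP receptor signalling were examined. In WT 4 rose and 2 fell at 1 hpi, where 21.3% of all genes were called, and 13 rose and 4 fell at 120 hpi, against 63.8%. In R35A the figures were 5 and 4 at 1 hpi, against 38%, and 11 and 3 at 120 hpi, against 63.5%. The share of the list called at 1 hpi was near that of all genes. The list's median log2 change at 120 hpi was 0.757 in WT, beside -0.359 for all genes. By 120 hpi the medium had been renewed without IL-7, and the part of this in the changes of Il7r and of the list was not tested. The largest rise at both of the points used for naming was that of Socs3, a feedback inhibitor of JAK and STAT signalling. It went from 16.6 and 15.9 to 160.4 and 166 CPM within 1 hpi in R35A, 9.91-fold, and from 15.6 and 15.9 to 417 and 412 CPM by 120 hpi in WT. The kinase gene Pim1 rose 6.76-fold in WT by 120 hpi. Tslp rose 3.24-fold at 1 hpi in R35A on low levels, from 1.01 and 1.01 to 3.29 and 3.39 CPM, when the fibroblast markers summed to 4177 and 4221 CPM, and the part of the feeder cells in it was not tested.

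Enpep was the member with the deepest loss. In WT cells its level was 267 and 256 CPM before induction, 118 and 123 at 1 hpi, 80.1 and 77.3 by 3 hpi, 40.2 and 41 at 6 hpi, 6.44 and 6.89 by 18 hpi and 0.531 and 0.764 at 120 hpi. R35A cells held 245 and 250.5 CPM before induction, 17.7 and 17.1 at 1 hpi, 13.9 and 14.6 by 3 hpi, 13.2 and 11.6 at 6 hpi, 6.87 and 6.39 by 18 hpi and 0.853 and 0.682 at 120 hpi. R35K cells held 254 and 254 CPM before induction, 57.5 and 57 at 1 hpi, 36.4 and 34.4 by 3 hpi, 17.9 and 18.3 at 6 hpi, 14.9 and 12.3 by 18 hpi and 0.0835 and 0.163 at 120 hpi. R35A cells lost most of the transcript within the first hour, WT cells were still above that level at 6 hpi and below it at 18 hpi, and R35K lay between them up to 6 hpi. The fall at 1 hpi was 2.14-fold in WT, 14.5-fold in R35A and 4.6-fold in R35K. By the size of its fall at 1 hpi in R35A, Enpep ranked 55 of the 16988 genes tested. At 18 hpi the difference in change between R35A and WT was not called, at 0.05 ± 0.12 (SE, edgeR adjusted p = 0.867), and R35K was the highest.

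Between R35A and WT, the difference in the Enpep change was the largest among the 9 genes at 1, 3 and 6 hpi. R35A minus WT was -2.76 ± 0.068 on the log2 scale at 1 hpi (edgeR adjusted p = 6.42e-35), -2.41 at 3 hpi and -1.64 at 6 hpi. R35K minus WT was -1.03, -1.11 and -1.12 at these times and turned to 1.08 ± 0.11 at 18 hpi (adjusted p = 2.67e-12). At 120 hpi almost nothing was left. The counts were 6 and 8 in WT, 10 and 9 in R35A and 1 and 2 in R35K. The fall from 0 hpi was 407-fold in WT (95% Poisson interval 242 to 745, counting error only) and 325-fold in R35A (208 to 540). In R35K both libraries were at or under 3 counts, so the fall is a bound, at least 1030-fold against a floor of 3 counts per library.

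Of 6 other membrane peptidases, 2 rose and 2 fell at 1 hpi in R35A, against 38% of all genes called, and 2 rose and 2 fell at 120 hpi in WT, against 63.8%, which the count is near. Dpp4, a dipeptidyl peptidase, fell from 242 and 238 to 21.8 and 23.3 CPM at 1 hpi in R35A. Anpep, the myeloid aminopeptidase CD13, went the other way, from 14.8 and 15.2 to 82.8 and 76.4 CPM at 1 hpi in R35A and from 13 and 16.7 to 281 and 277 CPM by 120 hpi in WT. By 120 hpi in WT, Mme, the B cell precursor antigen CD10, had gone from 8.71 and 10.8 CPM to 0 counts in both libraries, and Ace had gone from 3 counts in all at 0 hpi to 51.9 and 50.1 CPM.

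Bst1 fell first and then rose above its starting level. In WT cells it was 61.3 and 60.1 CPM before induction, 24.8 and 25.3 at 1 hpi, 20.6 and 21.7 by 3 hpi, 14.2 and 15.6 at 6 hpi, 9.31 and 8.97 by 18 hpi and 214 and 214 at 120 hpi. The R35A libraries had 59.5 and 56.5 CPM before induction, 13.8 and 17.1 at 1 hpi, 20.1 and 21.4 by 3 hpi, 17 and 17.9 at 6 hpi, 34.1 and 31.6 by 18 hpi and 303 and 305 at 120 hpi. The R35K libraries had 61.6 and 60.5 CPM before induction, 29.3 and 28.5 at 1 hpi, 22.1 and 23.2 by 3 hpi, 25.4 and 27.9 at 6 hpi, 26.9 and 24.9 by 18 hpi and 226 and 234 at 120 hpi. The lowest mean came at 18 hpi in WT, at 1 hpi in R35A and at 3 hpi in R35K. At 120 hpi all 6 libraries stood above all 30 earlier ones. The log2 change at 120 hpi was 1.69 ± 0.049 in WT, 2.27 ± 0.047 in R35A and 1.81 ± 0.048 in R35K (SE, largest edgeR adjusted p = 2.8e-27). The fibroblast markers fell over the same interval, from 18 to 120 hpi, in all constructs, and the part of the feeder cells in the Bst1 changes was not tested.

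The early phase of Bst1 differed by test as well as in timing. At 1 hpi R35A minus WT was -0.68 ± 0.096 on the log2 scale (edgeR adjusted p = 6.56e-08), or -0.53 and under the fold threshold without the first R35A library at 1 hpi, and R35K minus R35A was 0.83. At 18 hpi both mutants were above WT, by 1.89 ± 0.1 for R35A (adjusted p = 3.04e-21) and 1.5 ± 0.1 for R35K (adjusted p = 2.83e-18). The step from 6 to 18 hpi was upwards in R35A, 0.9 ± 0.07 (adjusted p = 5.78e-15), downwards in WT, -0.69 ± 0.099 (adjusted p = 6.28e-08), and not called in R35K, -0.02 ± 0.069. At 120 hpi R35A minus WT was 0.58 ± 0.069, just under the fold threshold, and 0.637 and called without the low-count filter. In the annotation 473 bases of Bst1 exons lie within Fbxl5 on the opposite strand, and the strand setting of the counting is not given in the sources used here.

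Cd38 lies near Bst1 on chromosome 5 and encodes a related enzyme, and it had no called change up to 6 hpi. From 0 to 18 hpi its level lay between 7.91 and 19.3 CPM in all 30 libraries. At 120 hpi it was 40.5 and 49.2 CPM in WT, 41.8 and 43.4 in R35A and 90.3 and 91.9 in R35K. The R35K libraries ended above all 4 of the others. The rise from 0 hpi was 2.93-fold in WT, 2.71-fold in R35A and 5.27-fold in R35K. The difference in change at 120 hpi was 0.82 ± 0.14 over WT (SE, edgeR adjusted p = 2.8e-06) and 0.94 ± 0.13 over R35A (adjusted p = 4.46e-07) on the log2 scale. At 6 hpi R35K minus WT was 0.77 ± 0.16 (adjusted p = 9.89e-05). The only fall called for Cd38, -0.64 in WT at 18 hpi, was below the fold threshold, at -0.53, with DESeq2, and -0.487 without the first WT library at 18 hpi. The start of Cd38 is 24566 bases beyond the end of Bst1 (mm10).

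Of 11 other genes that make or consume NAD, 2 rose and 2 fell at 1 hpi in R35A, near the 38% of all genes called there, and 4 rose and 6 fell at 120 hpi in WT, against 63.8%. Parp1, a nuclear enzyme that consumes NAD, dropped from 401 and 416 to 76 and 74.3 CPM at 1 hpi in R35A, where Nmnat2, which makes NAD, rose 4.47-fold. Nampt, the rate-limiting enzyme of NAD salvage, rose from 54.6 and 53.6 CPM to 248 and 272 CPM in WT by 120 hpi. Sarm1 fell 3.78-fold there on counts of 23 and 14 at 0 hpi and 4 and 4 at 120 hpi.

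Among the adhesion molecules and coreceptors, Cd24a had the highest level per kb of exon at 0 hpi, and it fell in steps. In WT cells it was 1716 and 1728 CPM before induction, 557 and 564 at 1 hpi, 524 and 535 by 3 hpi, 450.2 and 444 at 6 hpi, 304 and 303 by 18 hpi and 29.9 and 25.5 at 120 hpi. For R35A the values were 1633 and 1575 CPM before induction, 338 and 338 at 1 hpi, 355 and 351 by 3 hpi, 358 and 358 at 6 hpi, 302 and 302 by 18 hpi and 44.5 and 50.4 at 120 hpi. For R35K the values were 1643 and 1589 CPM before induction, 367 and 373 at 1 hpi, 374 and 362 by 3 hpi, 364 and 373 at 6 hpi, 336 and 316 by 18 hpi and 40.4 and 34.4 at 120 hpi. Both mutants dropped to a plateau within 1 hpi and held it to 18 hpi, the time at which WT reached the same level, and a second drop followed in all 3 constructs by 120 hpi. The fall at 1 hpi was 3.02-fold in WT, 4.82-fold in R35A and 4.53-fold in R35K. R35A minus WT was -0.67 ± 0.05 on the log2 scale at 1 hpi (edgeR adjusted p = 3.72e-16) and no difference between R35A and R35K was called at any time. R35A minus WT was not called at 3, 6 and 18 hpi, at -0.51, -0.22 and 0.08. R35K minus WT was called at no time, with -0.51 at 1 hpi and 0.52 at 120 hpi. At 120 hpi the relation had turned: the R35A fall was smaller than that of WT by 0.88 ± 0.07 (adjusted p = 3.25e-15). Of the distinct 50-base words in Cd24a transcripts 2.75% also occur in another annotated gene, Gm6212.

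Spn, the gene for CD43, was lower in both mutants than in WT at all times after induction. In WT cells it was 161 and 157 CPM before induction, 100.1 and 99.5 at 1 hpi, 121 and 116 by 3 hpi, 107 and 109 at 6 hpi, 38.3 and 38 by 18 hpi and 45.8 and 45 at 120 hpi. R35A cells had 144 and 141 CPM before induction, 33 and 35.2 at 1 hpi, 39 and 41.5 by 3 hpi, 39.9 and 37.7 at 6 hpi, 16.6 and 17.8 by 18 hpi and 20.5 and 21.4 at 120 hpi. R35K cells had 148 and 155 CPM before induction, 55.5 and 53 at 1 hpi, 63.2 and 59 by 3 hpi, 61.9 and 67.7 at 6 hpi, 26.8 and 28.1 by 18 hpi and 22.6 and 21.5 at 120 hpi. At every time from 1 to 18 hpi R35A was the lowest, R35K intermediate and WT the highest, and at 120 hpi both mutants were below WT. In WT the early change was -0.65 ± 0.041 on the log2 scale at 1 hpi (SE, edgeR adjusted p = 3.64e-19) and did not reach 1.5-fold at 3 and 6 hpi, at -0.42 and -0.58; the latter was -0.589 and called without the low-count filter. In R35A it was already -2.09 ± 0.048 at 1 hpi. The R35A change was below that of WT at all 5 times, by -1.44, -1.43, -1.32, -1.01 and -0.95 (largest edgeR adjusted p = 3.6e-14). In R35K it was called lower at 4 of the 5 times, and at 18 hpi the difference was -0.41, under the fold threshold. R35K minus R35A was called at 6 hpi, 0.65 ± 0.066 (adjusted p = 1.44e-11), and was just under the fold threshold at 1 and 18 hpi, 0.58 and 0.58.

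Cd72 fell and partly came back. In WT cells it was 115 and 118 CPM before induction, 38.6 and 39.5 at 1 hpi, 37.5 and 41.3 by 3 hpi, 32.3 and 34.4 at 6 hpi, 11.6 and 11.4 by 18 hpi and 47.6 and 48.3 at 120 hpi. The level in R35A was 111 and 113 CPM before induction, 18.8 and 22.2 at 1 hpi, 19.6 and 19.5 by 3 hpi, 20.1 and 19.1 at 6 hpi, 11.3 and 10.1 by 18 hpi and 56.7 and 53.4 at 120 hpi. The level in R35K was 109.9 and 118 CPM before induction, 35.2 and 38.6 at 1 hpi, 36.1 and 35.6 by 3 hpi, 36 and 37.5 at 6 hpi, 19.5 and 19.4 by 18 hpi and 50.8 and 47.6 at 120 hpi. R35A was below WT from 1 to 6 hpi, R35K stayed near WT until 6 hpi, and all constructs reached their lowest level at 18 hpi before rising to 47.6 to 56.7 CPM at 120 hpi, still below the start. The log2 change from 18 to 120 hpi was 1.94 ± 0.082 in WT, 2.26 ± 0.079 in R35A and 1.28 ± 0.072 in R35K (SE, largest edgeR adjusted p = 1.82e-17). At 1 hpi R35A minus WT was -0.92 ± 0.086 (adjusted p = 9.66e-13), and R35K minus WT was not called, at -0.05 ± 0.081 (adjusted p = 0.747). R35K fell less than R35A at 1, 3, 6 and 18 hpi, by 0.83 to 0.89. In the annotation 1575 bases of Cd72 exons lie within Tesk1 on the opposite strand, and the strand setting of the counting is not given in the sources used here.

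Cd2 had few counts and is also one of 20 B cell genes that the study itself listed, so its direction is not independent evidence. In WT cells it was 8.37 and 8.26 CPM before induction, 3.55 and 3.61 at 1 hpi, 2.81 and 3.6 by 3 hpi, 2.36 and 2.95 at 6 hpi, 0.319 and 0.637 by 18 hpi and 5.22 and 5.16 at 120 hpi. Its R35A values were 6.58 and 7.24 CPM before induction, 2.23 and 2.87 at 1 hpi, 2.38 and 2.05 by 3 hpi, 1.48 and 1.63 at 6 hpi, 2.18 and 2.3 by 18 hpi and 12.8 and 10.9 at 120 hpi. Its R35K values were 7.25 and 7.76 CPM before induction, 4.52 and 5.27 at 1 hpi, 4 and 4.8 by 3 hpi, 3.53 and 3.93 at 6 hpi, 3.31 and 2.42 by 18 hpi and 13.8 and 11.9 at 120 hpi. WT cells nearly lost it at 18 hpi, with 5 and 11 counts, and regained part of it, while both mutants kept 2.18 to 3.31 CPM at 18 hpi and ended above their start. At 18 hpi the WT change was -4.08 ± 0.24 on the log2 scale (SE, edgeR adjusted p = 8.94e-21), and without the second WT library it was -4.67. The R35A change was above it by 2.44 ± 0.35 (edgeR adjusted p = 1.91e-07) and 3.05 without that library, and the R35K change by 2.7 ± 0.34 (adjusted p = 3.36e-09) and 3.29 without it. At 120 hpi it had fallen in WT, -0.81 ± 0.16, and risen in R35A, 0.65 ± 0.13, and in R35K, 0.68 ± 0.13. The difference between R35A and WT there was 1.45 ± 0.21 (adjusted p = 9.47e-08). Fitted on the 0 and 120 hpi libraries of WT alone, the WT fall was -0.57 and short of the threshold.

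**Figure D4:**
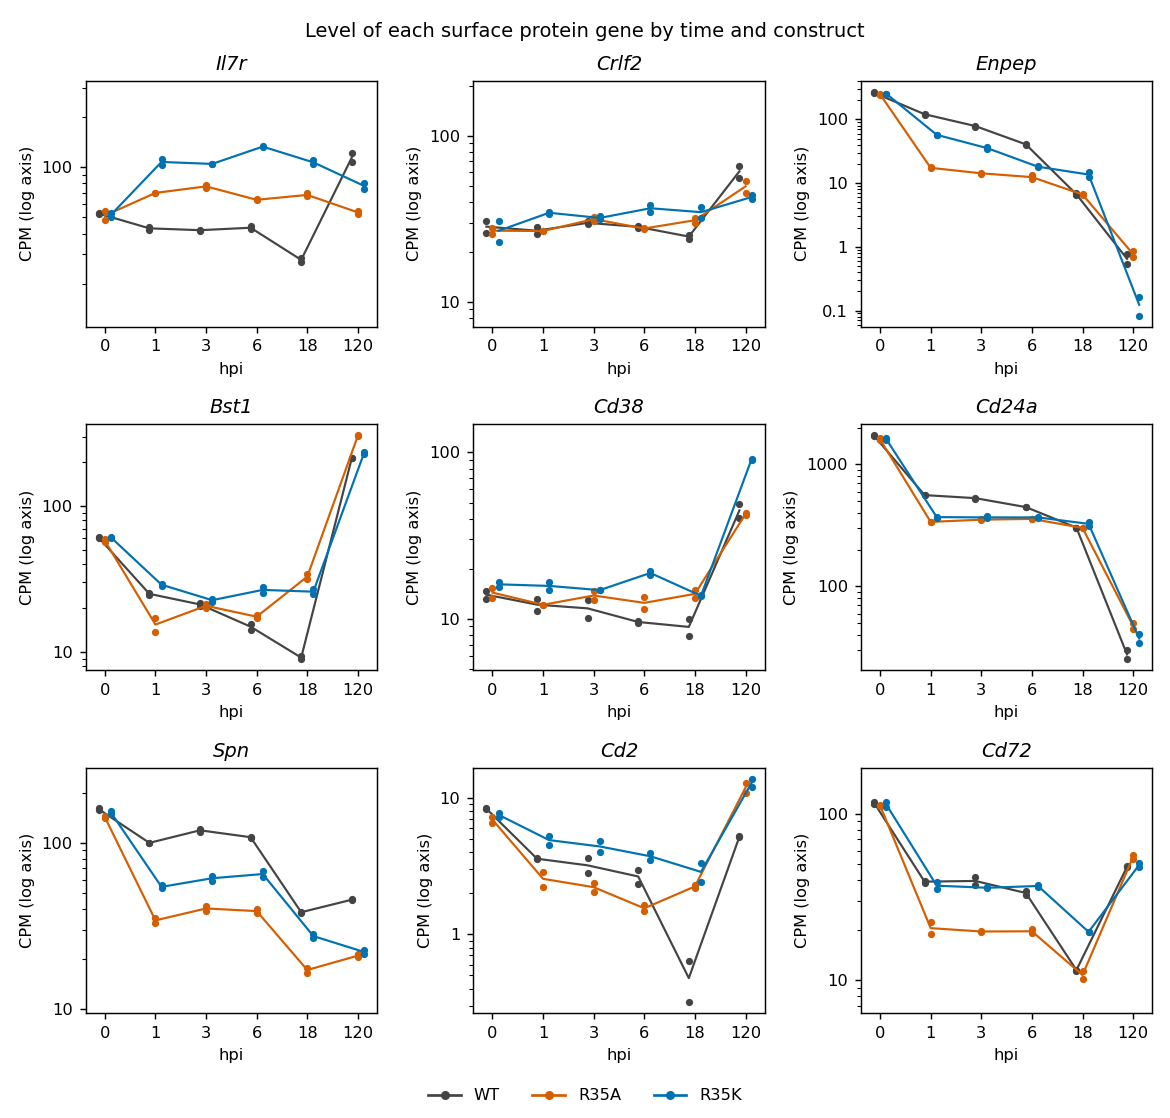
CPM (log axis) of the 9 genes against hpi in WT, R35A and R35K cells, with a point for each of the 2 replicates and a line through their means. Enpep, Cd24a and Spn ended below their start in all constructs, Bst1 and Cd38 above it, and the lines of Il7r lie in the order WT, R35A, R35K from 1 to 18 hpi.

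Of 13 ligands and cytoplasmic partners of these proteins, 2 rose and 4 fell at 1 hpi in R35A, against 38% of all genes called, and 5 rose and 4 fell at 120 hpi in WT, against 63.8%. Both counts are near the share of all genes. Siglec1, a macrophage lectin that binds CD43, rose from 0.201 and 0.373 to 13.8 and 13.8 CPM at 1 hpi in R35A and from 0.411 and 0.356 to 456 and 436 CPM at 120 hpi in WT, on counts of 3 to 7 at 0 hpi. Siglecg, a B cell lectin that binds CD24, fell 3.37-fold at 1 hpi in R35A. Cd48, the ligand of CD2, rose 7.7-fold in WT by 120 hpi, from 33 and 33.7 to 273 and 287 CPM.

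For comparison, 17 other B cell surface genes were examined, of which 16 could be tested. Some of these are also among the B lineage markers. In WT 3 rose and 11 fell at 1 hpi, against 21.3% of all genes called, and 4 rose and 12 fell at 120 hpi, against 63.8%. In R35A 3 rose and 11 fell at 1 hpi, against 38%. Their median log2 change was -0.867 at 1 hpi and -2.65 at 120 hpi in WT and -1.67 at 1 hpi in R35A. The medians of the 9 genes at these points were -1.10, -0.806 and -1.93. Cd22 fell from 85.9 and 85.4 to 6.47 and 5.85 CPM and Ms4a1, which encodes CD20, from 33.4 and 32.8 to 2.79 and 1.66 CPM at 1 hpi in R35A.

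Over the whole set, the change from 0 hpi was then compared between constructs. R35A and WT differed in 6 of the 9 genes at 1 hpi (1 higher and 5 lower in R35A), where the rule called 14% of all genes. They differed in 4 at each of 3, 6, 18 and 120 hpi, against 13, 10.3, 8.36 and 14.5%. The 5 that were lower at 1 hpi were Enpep, Spn, Cd72, Bst1 and Cd24a, and the one that was higher was Il7r. Levels at matched hpi gave 6, 5, 4, 5 and 4 of the 9 genes from 1 to 120 hpi, against 19.3, 17, 13.7, 10.1 and 18.8% of all genes.

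R35K and WT differed in 4 genes at 1 and at 3 hpi (2 higher and 2 lower in R35K), 6 by 6 hpi, 5 by 18 hpi and 4 by 120 hpi. The share of all 17277 genes called was 11.9, 10, 12.2, 13.3 and 10.1%. At 18 hpi all 5, Il7r, Enpep, Bst1, Cd2 and Cd72, were higher in R35K. The Cd2 differences at 1, 3 and 6 hpi, of 0.60 to 0.64 on the log2 scale, were lost with DESeq2, with adjusted p between 0.101 and 0.12, without the low-count filter, and without single libraries, such as the first WT library at 0 hpi. Between the mutants, the change was higher in R35K for 5 genes at 1 hpi, for 3 by 3 hpi, 4 by 6 hpi and 3 by 18 hpi, and was called lower for none. Over all genes 5.83, 3.02, 5.89 and 3.44% were called. At 120 hpi Cd38 was higher in R35K and Enpep lower, against 1.61%. The Enpep calls of R35K at 120 hpi rest on counts of 1 and 2 and were lost without the first R35K library (adjusted p = 0.134 against WT and 0.069 against R35A). These comparisons share control libraries and were each read on their own.

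**Figure D5:**
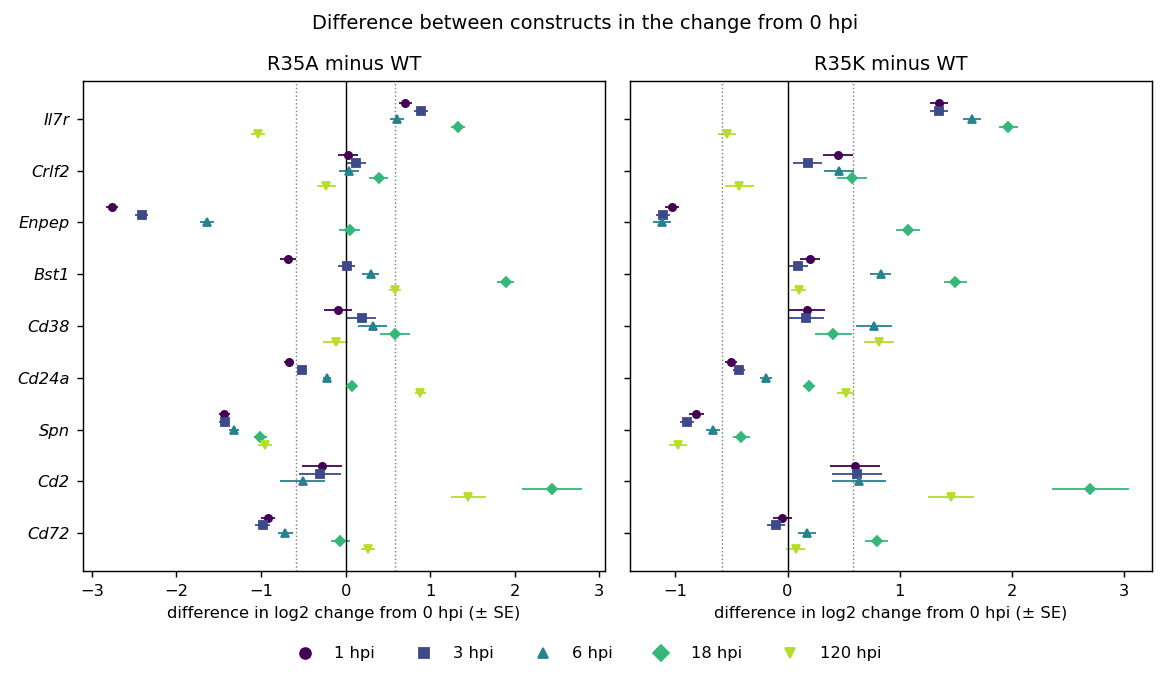
Difference in the log2 change from 0 hpi between R35A and WT (left) and R35K and WT (right) for each gene, with points for 1, 3, 6, 18 and 120 hpi, bars of 1 SE and dotted lines at the 1.5-fold threshold. Enpep at 120 hpi is left out because of its counts. Spn lies below 0 at all 5 times in both panels, and Il7r lies above 0 up to 18 hpi and below 0 at 120 hpi.

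Step by step, the time courses had few calls from 1 to 6 hpi and 2 late moves. From 1 to 3 and from 3 to 6 hpi the step called 1 gene each in WT and in R35K, Enpep in all cases. In R35A it called 0, and DESeq2 called 0 as well. By edgeR's unadjusted p alone, 5 and 4 of the 9 genes were below 0.05 in R35A. No count of all genes was made at that p, so 5 and 4 have no background to be read against. The step's own rule, with fold and adjusted p, called 1.04 and 1.04% of all genes in WT. It called 0.347 and 1.19% in R35K and 0.553 and 0.177% in R35A. Short steps can miss a gradual change: mean Bst1 in WT went from 25.0 CPM at 1 hpi to 14.9 CPM at 6 hpi without a call at either step. The step from 6 to 18 hpi lowered 6 genes in WT, against 13.3%. It lowered 3 genes and raised Bst1 in R35A, against 4.28%, and lowered Spn and Cd72 in R35K, against 5.4%. From 18 to 120 hpi WT raised 6 and lowered 2 genes and each mutant raised 4 and lowered 2, against 60.5% in WT, 53.9% in R35A and 53.3% in R35K. Bst1, Cd38, Cd2 and Cd72 rose and Enpep and Cd24a fell in this step in all 3 constructs.

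Across the 18 group means the members were compared by log2 CPM, as a description, since all genes share the libraries. The highest correlation was that of Enpep and Cd24a (Pearson's r = 0.955, 18 groups), followed by Bst1 and Cd38 (0.895), Enpep and Spn (0.829), Cd38 and Crlf2 (0.828), Bst1 and Cd2 (0.824) and Cd2 and Cd72 (0.808). Il7r reached at most 0.56, with Crlf2. Among 8250 genes that varied over the groups, the 3 most like Enpep were Crhbp, Slc43a1 and Myb (0.99 each), and those most like Cd24a were Lax1, Trim59 and Bcat1 (0.99 each). Bst1 was most like Sdf2l1, Pnp and Ly6e (0.98 each), Cd38 most like Pdk1, Sord and Fcgr2b (0.97 each), and Spn most like Gm17552, Pecam1 and Rasgrp2 (0.99 each). Cd72 was most like Wdfy4, Cdc25b and Lrmp (0.98 to 0.99) and Cd2 most like Elmo1, Tnfaip8 and Inpp4b (0.93 each). The values for Il7r, with Zfyve28, Gm44080 and Pax8, were lower, at 0.87 to 0.89. These names depend on the measure, since with Spearman's rho only Ly6e was kept, for Bst1. Crlf2 varied too little to be ranked.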

How the data were processed

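RNA-seq of 36 libraries (3 constructs, 6 timepoints, 2 replicates) was analysed. Per the labels and the study's methods, the authors made stranded mRNA libraries, sequenced 50 bases from one end, used FastQC for quality, and ran STAR 2.5.0a on mm10 for both alignment and counts per gene. The deposited count tables hold whole counts of 40354 genes, not normalized. The log2 tables that the authors deposited hold 19067 genes; every value was recovered as log2(count divided by a size factor, plus 1), with DESeq2 1.14.1 named by the study, and these tables were not tested further. The annotation release and the strand column are not given in the sources used here.

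Counts were tested with edgeR 4.0.16 (R 4.3.3) by filterByExpr, TMM and quasi-likelihood F tests: 24 WT and R35A libraries in 1 fit (16988 genes), 12 R35K libraries in another (16434), and all 36 together (17277) where R35K was compared with WT or R35A. Adjusted p-values are Benjamini-Hochberg over all genes of a fit. Scripts were tested on simulated data. Groups came from the sample titles. Each gene's CPM uses the joint TMM scale; a group with 3 or fewer counts in every library is at the floor. Lengths and positions are from GENCODE vM21 (97.07% of symbols found), promoters from RefSeq (GRCm38.p6). Genes named were all 9 members, the 3 genes most like each, and in each list the 2 with the largest change at 1 hpi in R35A and at 120 hpi in WT, except that 1 gene is not reported here. The members and lists were chosen with earlier results of these data known. The study calls the replicates biological. Whether they came from separate animals or cultures is not stated, so p-values measure the spread between these libraries, which may be technical. Among the better-counted genes of a group, the median squared difference between replicates was 1.08 to 2.17 times that of counting noise. By the mean in place of the median, this ratio was 15.1 in WT at 6 hpi and 8.15 in R35K at 3 hpi. In the other groups the mean ratio was 1.12 to 3.47. No libraries held identical counts. Alternatives were DESeq2 1.42.0, its size factors in edgeR, no filter, a 2-fold threshold, adjusted in place of unadjusted p and the reverse, only the groups compared, a replicate block, and leaving out each library.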

Additional observations from a re-analysis of the deposited data

Results flagged for a closer look

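The change from 0 hpi differed between constructs, by the interaction test (edgeR, adjusted p at most 0.05 and at least 1.5-fold), in the genes below, each given at the time of its largest called difference on the log2 scale. R35A minus WT was 1.33 for Il7r at 18 hpi, -2.76 for Enpep at 1 hpi, 1.89 for Bst1 at 18 hpi, 0.88 for Cd24a at 120 hpi, -1.44 for Spn at 1 hpi, 2.44 for Cd2 at 18 hpi and -0.98 for Cd72 at 3 hpi. R35K minus WT was 1.97 for Il7r at 18 hpi, -1.12 for Enpep at 6 hpi, 1.5 for Bst1 at 18 hpi, 0.82 for Cd38 at 120 hpi, -0.98 for Spn at 120 hpi, 2.7 for Cd2 at 18 hpi and 0.8 for Cd72 at 18 hpi. R35K minus R35A was 1.04 for Il7r at 6 hpi, 1.68 for Enpep at 1 hpi, 0.83 for Bst1 at 1 hpi, 0.94 for Cd38 at 120 hpi, 0.65 for Spn at 6 hpi, 1.15 for Cd2 at 6 hpi and 0.89 for Cd72 at 6 hpi. Enpep at 120 hpi in R35K was left out of this choice because of its counts of 1 and 2. Crlf2 had no such difference. Groups of 2 libraries do not allow a test for a single outlying library.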

How the results depend on the processing

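Of the 9 genes and 5 times per construct, 33 tests were called in WT, 32 in R35A and 35 in R35K, and each count stayed within 1.5 times under every alternative run, as did the 36 calls between neighbouring timepoints. A 2-fold threshold lowered the calls of differences in change from 22 to 12 for R35A and WT, from 23 to 12 for R35K and WT and from 17 to 6 for R35K and R35A, and those at matched hpi from 24 to 14, because the fold threshold was higher. Under the other alternatives these 4 counts lay between 22 and 24, 20 and 23, 16 and 17, and 22 and 24. Without single libraries the counts ran from 32 to 35 in WT, 32 to 33 in R35A and 34 to 37 in R35K for changes from 0 hpi, from 21 to 24, 19 to 26 and 15 to 20 for the 3 differences in change in the order above, from 23 to 25 at matched hpi and from 36 to 38 between neighbouring timepoints. No called value changed sign. DESeq2 size factors moved the median of all genes by up to 0.158 (WT at 120 hpi, log2).

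The replicate numbers were not used to pair the samples in the main fits. Over 153 pairs of groups the median correlation of the replicate differences was -0.001, with 33 above 0.1. The values ran from -0.668 to 0.467. The median cannot show whether some groups shared a batch under differently ordered replicate numbers. With the replicate block the counts were 33, 32 and 35 for changes, 22, 23 and 17 for differences in change, 24 at matched hpi and 36 between neighbouring timepoints, and it changed no call.

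Shares of all genes called, from 1.61 to 14.5% for differences in change, became at most 8.66% at 2-fold and, for changes from 0 hpi, 10.7 to 50.1% in place of 21.3 to 64.2%. Without the low-count filter, where more genes were tested, they were 11 to 35.1% for changes from 0 hpi, 0.623 to 6.52% for differences in change, 0.0714 to 29% between neighbouring timepoints and 0.0423 to 8.66% at matched hpi. Differences in change ran from 0.996 to 12.5% with DESeq2 and 4.56 to 17.4% with unadjusted p; steps, 0.177 to 60.5%, ran from 0.0353 to 58.5%, 1.72 to 61% and, at 2-fold, 0.0706 to 46.9%. Ranks per kb of coding in place of exon length moved Enpep from 2 to 4 and Spn from 4 to 2 in WT at 0 hpi. There Crlf2 went from 5 to 7, Bst1 from 6 to 5, Il7r from 7 to 6, Cd2 from 8 to 9 and Cd38 from 9 to 8. Cd24a stayed at 1 and Cd72 at 3. In WT at 120 hpi Cd24a moved from 6 to 2, Crlf2 from 2 to 4 and Cd72 from 4 to 6, and the other genes kept their ranks. With Spearman's rho, 1 of the 3 genes named for Bst1 was kept and 0 for each other gene ranked. Low counts limit Cd2 at 18 hpi in WT and Enpep at 120 hpi.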
